A study of Mus musculus with 7 samples.

Results

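The genes described here encode the particles and motors of intraflagellar transport, the traffic that carries proteins along the microtubules of a cilium. They were chosen by name, as 32 of the 54532 genes in the table, in 4 classes: 6 genes of the IFT-A particle, 17 of the IFT-B particle, 5 of the kinesin-2 motors and 4 of the dynein-2 motor. RNA was sequenced from mouse eyes labelled knockout (n = 3), heterozygous (n = 2) or wildtype (n = 2) for Agbl5, which encodes a carboxypeptidase that trims glutamate side chains from tubulin. The 3 genotypes differed, as far as the labels say, in Agbl5 alone; the allele, the strain and the age of the mice were not given in the sources used here. The tissue is labelled eyeball and the extraction protocol names retina. Nothing in the labels says that the libraries of a genotype came from separate animals. The Y-linked genes given below show that wildtype 1 and 2 did, and that knockout 3 came from another animal than knockout 1 and 2. For knockout 1 against knockout 2 and for the heterozygous pair this is not known. The p-values measure the spread between these libraries, which may in part be technical. All 32 members passed the filter on low values, a mean of at least 1 FPKM (fragments scaled to the length of the exons and to the depth of the library) over the 7 libraries.

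A photoreceptor keeps its light-sensing membranes in an outer segment, which is a modified cilium joined to the cell body by a thin connecting cilium. Everything the outer segment renews has to pass that bridge, and intraflagellar transport is part of the machinery that builds and maintains it. Kinesin-2 moves the trains toward the tip, IFT-B particles make up most of the outward train and load cargo such as tubulin, and dynein-2 with IFT-A brings trains back. IFT-A also takes part in the entry of membrane proteins. The tracks of this traffic are the tubulins that carry the glutamate chains, and the series set out to examine the recruitment of transport proteins when those chains are no longer trimmed. The values here are transcript levels only and carry no information on where the proteins are.

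Regulatory factors of the RFX family bind an element called the X-box in the promoters of many ciliary genes, so the promoters are shown first for what the members share in sequence. RefSeq promoters (GRCm38.p6, 250 bases before to 50 after the start) were matched for 27 of 32 members; Ift80, Ift81, Ift122, Ttc30b and Dync2li1 were not matched. An X-box was searched on both strands as the elements GTNNCC and NGNAAC with 0 to 3 bases between them, a loose form in which matches on opposite strands can cover the same bases. A match was found in 5 of 27 member promoters (18.5%) and in 1606 of 27025 promoters of all genes (5.94%). It was found in 4 of 14 IFT-B promoters, 1 of 5 kinesin-2 promoters, 0 of 5 IFT-A promoters and 0 of 3 dynein-2 promoters. Matches of 4 genes are given below in the direction of the gene, with the matched bases in capitals and 10 bases on each side. The search fixes part of their letters, so their likeness to each other is not a result. A match is a run of letters and not a measured binding site.
Ift22, chr5:136908107-136908140, plus strand: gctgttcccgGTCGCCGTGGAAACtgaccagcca
Ift22, second match, chr5:136908077-136908110, plus strand: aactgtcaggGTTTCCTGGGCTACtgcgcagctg
Ift74, chr4:94614476-94614508, plus strand: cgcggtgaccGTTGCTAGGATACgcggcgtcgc
Ttc26, chr6:38381481-38381514, plus strand: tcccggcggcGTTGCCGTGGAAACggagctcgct
Kif17, chr4:138262168-138262200, plus strand: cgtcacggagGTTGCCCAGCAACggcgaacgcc

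Ift22 held 2 matches. The Kif17 and Ttc26 matches lie before a RefSeq start but inside the gene models used here. Those models begin farther upstream, at 138250435 for Kif17 and 38381469 for Ttc26. The Ift74 match spans the start of its gene model, at 94614491. The Ttc26 match read as an X-box on both strands, those of Kif17 and the first one listed for Ift22 on the strand printed, and those of Ift74 and the second one of Ift22 on the opposite strand, where the letters shown are the complement read backwards. Member promoters had a median GC content of 57.7% and a median observed-to-expected CpG ratio of 0.769, against 52.8% and 0.39 over all promoters. All members are protein coding, but the promoter background, here and for the X-box, was not limited to protein coding genes. Of the 32 members, 8 (25%) started within 1000 bases of a protein coding gene that runs the other way, as did 1489 of 21938 protein coding genes (6.79%). Those neighbours were Mbd4 for Ift122, Cramp1l for Ift140, Tnfaip1 for Ift20, Arcn1 for Ift46, Smc4 for Ift80, Lrrc42 for Hspb11, 1700037C18Rik for Cluap1 and Dcun1d5 for Dync2h1. The members lay on 13 chromosomes, with 6 on chromosome 2, among them the close pair Ttc30a1 and Ttc30b.

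Reads were recovered from the FPKM for the 32117 genes that gave whole reads in every library, and summed to 12238268 to 14327633 per library. The 31 members among them (not Dync2li1) held 69 to 2408 reads each. Agbl5 was at 9.89 and 8.57 FPKM in wildtype, 4.21 and 5.34 in heterozygous and 1.53, 1.73 and 1.26 in knockout libraries, so the order of the levels followed the labels. Rod markers were high in every library, with the summed FPKM of 10 rod genes at 10109 to 11247 in the 4 controls (wildtype and heterozygous together) and at 9210 to 9455 in the 3 knockout libraries. The 6 microglial markers summed to 13.3 to 16.2 FPKM in the controls and 28.7 to 31.4 in knockout. Lens genes were abundant in heterozygous 1 and knockout 1, where 8 lens genes summed to 2736 and 4407 FPKM, against 2.84 to 26.4 in the other 5 libraries. Multiciliated cells, which are rich in these transport genes, left little trace: 6 of their markers summed to 9.58 to 11.3 FPKM in all libraries, most of it Ccdc39 (5.19 to 6.36 FPKM) and Dnah9 (1.99 to 2.82), with Foxj1 at 1.24 to 2.16, Hydin at 0.145 to 0.259 and Dnah5 near 0, at 0.0042 to 0.05. The 4 Y-linked genes measured were at 0 in wildtype 2 and knockout 3. They summed to 51.7 to 63.1 FPKM in the other 5 libraries. Wildtype 1 and 2 thus differed in sex, as did knockout 3 from knockout 1 and 2. In whole tissue, fewer cells of a type and less RNA per cell cannot be told apart, and the part of rod, microglial and lens content in the values below was not tested beyond the alternatives named beside them.

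**Figure D1:**
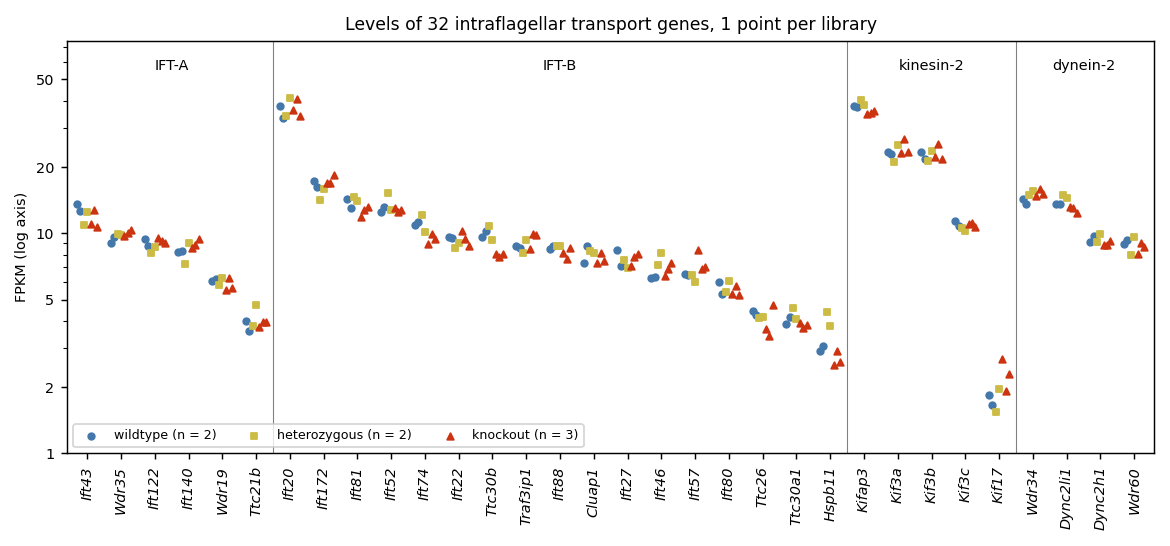
FPKM (log axis) of the 32 genes, ordered by mean level within each class, with 1 point per library: circles wildtype, squares heterozygous, triangles knockout. Levels run from 1.55 to 41.2 FPKM, and within a gene the 7 libraries lie close together compared with the distance between genes.

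Levels of the members were steady across the 7 libraries. Their means ran from 1.99 FPKM for Kif17 to 37.0 FPKM for Kifap3, and 25 of 32 lay between 4 and 20 FPKM. The coefficient of variation over all 7 libraries, genotypes mixed, had a median of 7.25% over the members, against 10.8% over all 15472 genes tested. Of the 32 members, 27 lay below the latter value. All tested genes were not matched to the members in level. The median was 6.06% for 10 motor genes that work outside the cilium and 9.54% for 18 partner genes, both described below. Among the members, Hspb11 (21.2%), Kif17 (19.4%) and Ttc30b (12.8%) varied most, and Kif3c (3.59%) and Wdr35 (4.28%) least. Summed over all 32 genes, the level was 369 and 360 FPKM in wildtype 1 and 2, 362 and 378 in heterozygous 1 and 2, and 353, 372 and 358 in knockout 1, 2 and 3. The genotypes overlapped in that sum. Fragments per kilobase allow genes to be compared in level, so the differences between members in a class are differences in transcript abundance as far as the exon models hold.

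The contrast of knockout and wildtype addresses which of these transcripts differ when both copies of Agbl5 are lost. No member passed the test (0 of 32; limma, Benjamini-Hochberg over all genes, threshold 0.05), where 0.323% of all tested genes did. At an unadjusted p under 0.05 there was 1 member, Ttc30b, against 7.5% of all genes, and voom, limma's model for read counts, run on recovered reads likewise called 0 members and left 1 of 31 at that unadjusted level. Members had a median log2 change of -0.02, with 13 above and 19 below 0, while all tested genes had a median of -0.00. Knockout and wildtype did not overlap in 10 of 32 members, 6 with knockout higher and 4 with knockout lower, and in 28.2% of all genes, so the members' share was near the background. Taken back to FPKM at the wildtype mean, the 95% interval lay within 1.5-fold in either direction for 31 of 32 members, the exception being Kif17, at up to 1.79-fold. A missed threshold does not show that levels are the same, and these intervals state how far apart the 2 genotypes could be.

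**Figure D2:**
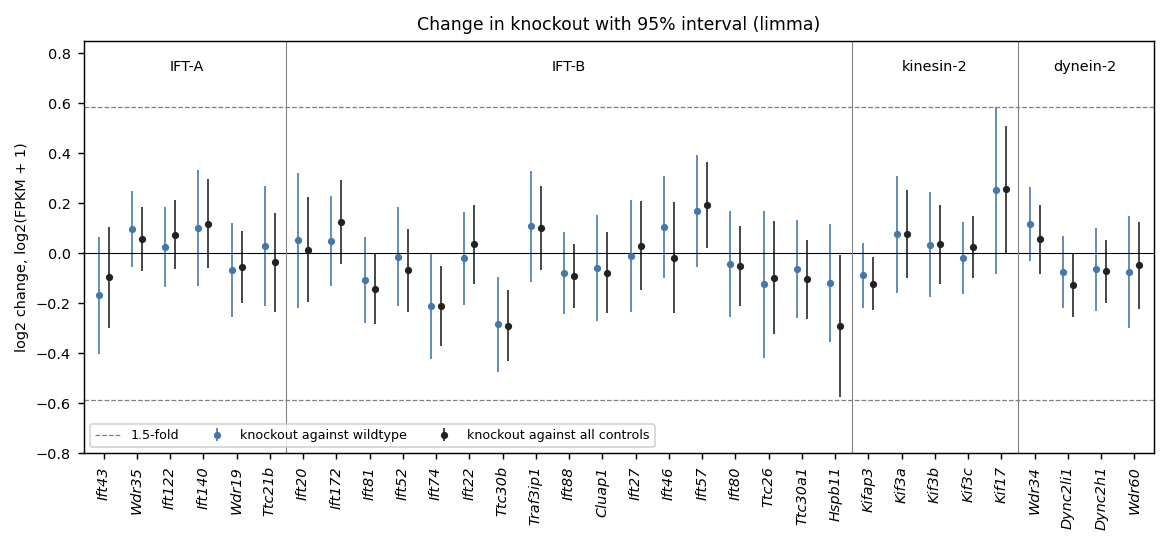
Log2 change of each member on the log2(FPKM + 1) scale for knockout against wildtype (blue) and against all controls (black), with 95% intervals from limma; dashed lines mark 1.5-fold in FPKM + 1. On this scale, which understates changes of low genes such as Hspb11 and Kif17, the intervals against all controls stay inside the dashed lines, and Ttc30b, at -0.28 and -0.29, lies farthest below 0 together with Hspb11 against all controls.

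The IFT-A particle showed no member past the test in any of the 4 comparisons. It has a core of Ift140, Ift122 and Wdr19 (also called IFT144) and a periphery of Wdr35 (IFT121), Ttc21b (IFT139) and Ift43. Ift43, the smallest subunit, was the most abundant transcript of the class. It stood at 13.5 and 12.6 FPKM in wildtype, 10.9 and 12.5 in heterozygous and 11.1, 12.8 and 10.7 in knockout libraries. One knockout library lay inside the wildtype range, and the log2 change was -0.17 ± 0.10 (SE; adjusted p = 0.775). Ift140, a gene of human retinal and skeletal ciliopathies, was at 8.24 and 8.32 FPKM in wildtype, 7.22 and 9.01 in heterozygous and 8.55, 8.89 and 9.44 in knockout. Knockout lay above both wildtype libraries but overlapped heterozygous (0.10 ± 0.10, adjusted p = 0.859; 0.07 without knockout 3). Wdr35 was at 9.03 and 9.59 FPKM in wildtype, 9.97 and 9.86 in heterozygous and 9.73, 10.01 and 10.4 in knockout (0.10 ± 0.06, adjusted p = 0.793; 0.06 without wildtype 1). Rescaled to TPM, Ift140 and Wdr35 stood at -0.05 and -0.05, with all genes shifted to a median of -0.16. Before that rescaling, the remaining IFT-A genes were closer to 0 against wildtype. Ift122 went over the 7 libraries from 8.18 to 9.49 FPKM, Wdr19 from 5.55 to 6.28 and Ttc21b, the least abundant, from 3.61 to 4.71. The class median was 0.03 against wildtype, 0.01 against all controls and -0.00 against heterozygous. The summed level of the 6 genes was 50.3 and 49.0 FPKM in wildtype, 45.9 and 51.0 in heterozygous and 48.2, 51.2 and 49.2 in knockout, with the lowest and nearly the highest value within the heterozygous pair.

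The IFT-B particle held the members with the smallest p, Ttc30b against wildtype and against all controls and Hspb11 against heterozygous, and neither passed the test. Ttc30b encodes a subunit of the IFT-B core counted as IFT70, one of 3 mouse genes for that subunit. It lies at chromosome 2, 75935849 to 75938585, on the minus strand of GRCm38, as a single exon of 2737 bases. Its level was 9.64 and 10.3 FPKM in wildtype 1 and 2, 10.8 and 9.32 in heterozygous 1 and 2, and 8.09, 7.79 and 8.10 in knockout 1, 2 and 3. All 3 knockout libraries lay below all 4 controls, and they were nearly level with each other. The log2 change was -0.28 ± 0.08 against wildtype (adjusted p = 0.436), -0.29 ± 0.08 against heterozygous (adjusted p = 0.284) and -0.29 ± 0.06 against all controls (adjusted p = 0.129). The direction was the same in all 16 alternatives of each comparison, from -0.43 to -0.23 against all controls, and none called it. These comparisons share the knockout libraries, so their values are not independent. The values rest on 293 to 424 reads a library.

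The relatives of Ttc30b give its value a limit. Ttc30a1 lies beside it on chromosome 2, at 75978247 to 75981967 on the same strand, and Ttc30a2 between them, at 75975740 to 75978170. Of the windows of 50 bases in the Ttc30b transcript, 25.8% occur unchanged in Ttc30a1 and 30.1% in Ttc30a2, so reads there could be assigned to more than 1 gene or dropped, and all 3 values are uncertain to that extent. Ttc30a1 was at 3.88 and 4.17 FPKM in wildtype, 4.57 and 4.08 in heterozygous and 3.90, 3.71 and 3.81 in knockout. Ttc30a2 was under the filter, at 0.225 to 0.582 FPKM. The ratio of Ttc30b to Ttc30a1 was 2.49 and 2.46 in wildtype, 2.36 and 2.29 in heterozygous and 2.08, 2.10 and 2.12 in knockout, a ratio chosen after the values were seen.

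Hspb11 encodes IFT25, the partner of the small GTPase IFT27 at the edge of IFT-B. It was at 2.91 and 3.07 FPKM in wildtype, 4.38 and 3.77 in heterozygous and 2.52, 2.91 and 2.61 in knockout libraries. The heterozygous pair stood above the other 5 libraries, and wildtype lay at the upper edge of knockout. The log2 change was -0.46 ± 0.10 for knockout against heterozygous (adjusted p = 0.2) and 0.34 ± 0.11 for heterozygous against wildtype (adjusted p = 0.974). Against all controls it was -0.29 ± 0.12 (adjusted p = 0.402), and -0.17 without both lens-rich libraries (adjusted p = 0.72). The gene had the fewest reads of the members, 69 to 128, and heterozygous 1, its highest library, was one of the lens-rich pair. Its partner Ift27 did not follow this order, at 8.38 and 7.11 FPKM in wildtype, 7.54 and 6.93 in heterozygous and 7.10, 7.82 and 8.07 in knockout.

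Ift74 and Ift81 form the coiled-coil pair of IFT-B that binds tubulin, and knockout was on the low side for both. Ift74 was at 10.9 and 11.2 FPKM in wildtype, 12.1 and 10.2 in heterozygous and 8.91, 9.98 and 9.39 in knockout. The knockout libraries lay below all controls, but the gap to heterozygous 2 was small. The log2 change of Ift74 was -0.21 ± 0.09 against wildtype (adjusted p = 0.672) and -0.21 ± 0.07 against all controls (adjusted p = 0.302). Against heterozygous it was -0.22 ± 0.09 (adjusted p = 0.413), and -0.10 without heterozygous 1 (adjusted p = 0.693) or -0.33 without heterozygous 2 (adjusted p = 0.157). Ift81 was at 14.2 and 13.1 FPKM in wildtype, 14.7 and 14.1 in heterozygous and 11.9, 12.8 and 13.2 in knockout. Knockout 3 overlapped wildtype, and the change was -0.18 ± 0.07 against heterozygous (adjusted p = 0.41) and -0.14 ± 0.06 against all controls (adjusted p = 0.397). Without both lens-rich libraries the changes of Ift74 and Ift81 against all controls were -0.14 and -0.08.

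For Ift57, Ift172 and Ift46 the order of the genotypes differed from gene to gene. Ift57, a peripheral subunit that links the particle to kinesin-2, was at 6.52 and 6.44 FPKM in wildtype, 6.46 and 6.02 in heterozygous and 8.37, 6.91 and 7.03 in knockout. All knockout libraries exceeded all controls, and knockout 1 stood apart from the other two. The change was 0.17 ± 0.09 against wildtype (adjusted p = 0.766) and 0.19 ± 0.07 against all controls (adjusted p = 0.368), and 0.09 and 0.11 without knockout 1. Exons of a predicted antisense gene overlap Ift57 by 225 bases, and without strand their reads cannot be separated. Ift172, the largest IFT-B protein, lies on chromosome 5 at 31253277 to 31291116, only 346 kilobases from Agbl5. It was at 17.2 and 16.3 FPKM in wildtype, 14.2 and 15.8 in heterozygous and 17.0, 16.9 and 18.3 in knockout. Its change was 0.20 ± 0.07 against heterozygous (adjusted p = 0.378), 0.13 without heterozygous 1, and near 0 against wildtype (0.05 ± 0.07, adjusted p = 0.914). Ift46, a core subunit, was at 6.26 and 6.34 FPKM in wildtype, 7.21 and 8.13 in heterozygous and 6.37, 6.86 and 7.35 in knockout, which gave 0.25 ± 0.09 for heterozygous against wildtype (adjusted p = 0.974).

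**Figure D3:**
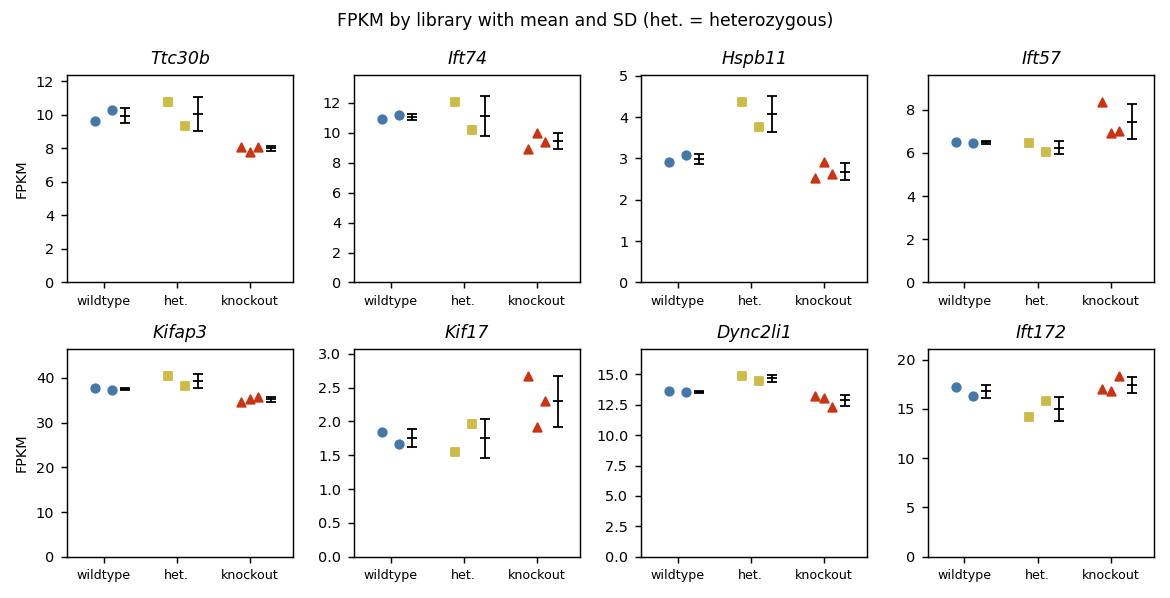
FPKM of 8 members in each library by genotype, with the mean and SD beside the points; every axis starts at 0. Ttc30b, Ift74, Kifap3 and Dync2li1 have all knockout points below all controls, Ift57 has them above, and Hspb11 is set apart by the heterozygous pair at 4.38 and 3.77 FPKM.

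The rest of IFT-B had no member past the test or at an unadjusted p under 0.05 in any of the 4 comparisons. Ift88, whose hypomorphic mutation in mice causes retinal degeneration, was at 8.47 and 8.75 FPKM in wildtype, 8.78 and 8.77 in heterozygous and 8.17, 7.63 and 8.53 in knockout, with 1 knockout library inside the range of the controls. Its exons overlap the antisense gene Ift88os by 67 bases. Ift20, which also works at the Golgi in sending membrane proteins toward the cilium, was the most abundant of the particle genes, at 33.4 to 41.2 FPKM. The other core genes were Ift52 at 12.4 to 15.2 FPKM, Ift22 at 8.61 to 10.2 and Ttc26 (IFT56) at 3.41 to 4.74. The other peripheral genes were Traf3ip1 (IFT54) at 8.14 to 9.93 FPKM, Cluap1 (IFT38) at 7.32 to 8.76 and Ift80 at 5.26 to 6.05. For Cluap1 the exons of 3 other gene models overlap, 1 of them on the same strand. The class median was -0.04 against wildtype, -0.07 against all controls and -0.09 against heterozygous. Summed, the 17 genes were at 175 and 169.9 FPKM in wildtype, 175 and 178 in heterozygous and 167, 173 and 169.5 in knockout. Knockout overlapped wildtype in this sum and lay below both heterozygous libraries.

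Kinesin-2 exists as a trimer of 2 motor chains, Kif3a with Kif3b or Kif3c, with the adaptor Kifap3 (KAP3), and as a dimer of Kif17. Kif3a and Kif3b were nearly equal in every library, with a ratio of 0.985 to 1.07, and Kif3a was 1.998 to 2.46 times Kif3c. Kif3a was at 23.3 and 22.9 FPKM in wildtype, 21.1 and 25.2 in heterozygous and 23.2, 26.8 and 23.3 in knockout (0.08 ± 0.10, adjusted p = 0.894; 0.01 without knockout 2). Kif3b ran from 21.4 to 25.4 FPKM over the 7 libraries and Kif3c, the steadiest member, from 10.2 to 11.4. Antisense gene models overlap 3205 bases of Kif3c exons, so its reads may include theirs. Kifap3 was the most abundant member, at 37.7 and 37.3 FPKM in wildtype, 40.4 and 38.2 in heterozygous and 34.7, 35.2 and 35.8 in knockout. The knockout libraries lay below all 4 controls by a small step: -0.09 ± 0.05 against wildtype (adjusted p = 0.787), -0.15 ± 0.05 against heterozygous (adjusted p = 0.362) and -0.12 ± 0.05 against all controls (adjusted p = 0.362). Its 95% interval against all controls ran from -0.23 to -0.01. Centred on the rod genes the change against all controls was -0.06.

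Kif17, a motor linked to channel transport in cilia, was the lowest member. It was at 1.85 and 1.66 FPKM in wildtype, 1.55 and 1.96 in heterozygous and 2.67, 1.92 and 2.30 in knockout. Knockout 2 fell inside the range of the controls. The change was 0.25 ± 0.14 against wildtype (adjusted p = 0.766) and 0.26 ± 0.11 against all controls (adjusted p = 0.405), and 0.14 against all controls without both lens-rich libraries (adjusted p = 0.771). It rested on 100 to 162 reads a library, and its interval against wildtype, -0.08 to 0.59, was the widest of the members. Of the 4582 exon bases of Kif17, 74 overlap exons of Sh2d5, a protein coding gene on the same strand, so reads there are uncertain. The kinesin-2 class median was 0.03 against wildtype, 0.04 against all controls and 0.07 against heterozygous.

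Dynein-2 brings trains back from the tip through the heavy chain Dync2h1, the light intermediate chain Dync2li1 and the intermediate chains Wdr34 and Wdr60. Dync2h1 was at 9.11 and 9.77 FPKM in wildtype, 9.15 and 9.96 in heterozygous and 8.85, 8.85 and 9.23 in knockout (-0.06 ± 0.07, adjusted p = 0.873; -0.02 without wildtype 2 and -0.11 without wildtype 1). Dync2li1 was at 13.6 and 13.5 FPKM in wildtype, 14.9 and 14.5 in heterozygous and 13.2, 13.1 and 12.3 in knockout. Here too the knockout libraries lay below all controls, with a change of -0.07 ± 0.06 against wildtype (adjusted p = 0.842; -0.05 without knockout 3) and -0.18 ± 0.06 against heterozygous (adjusted p = 0.353). Wdr34 had the opposite order against wildtype, at 14.3 and 13.6 FPKM in wildtype, 15.01 and 15.6 in heterozygous and 14.7, 15.8 and 15.1 in knockout (0.12 ± 0.06, adjusted p = 0.76). Wdr60 ran from 7.96 to 9.62 FPKM over the 7 libraries. On the TPM scale Wdr34 stood at -0.04 and Kif3a at -0.08, each with the sign turned. The dynein-2 median was -0.07 against wildtype, -0.06 against all controls and -0.05 against heterozygous.

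**Figure D4:**
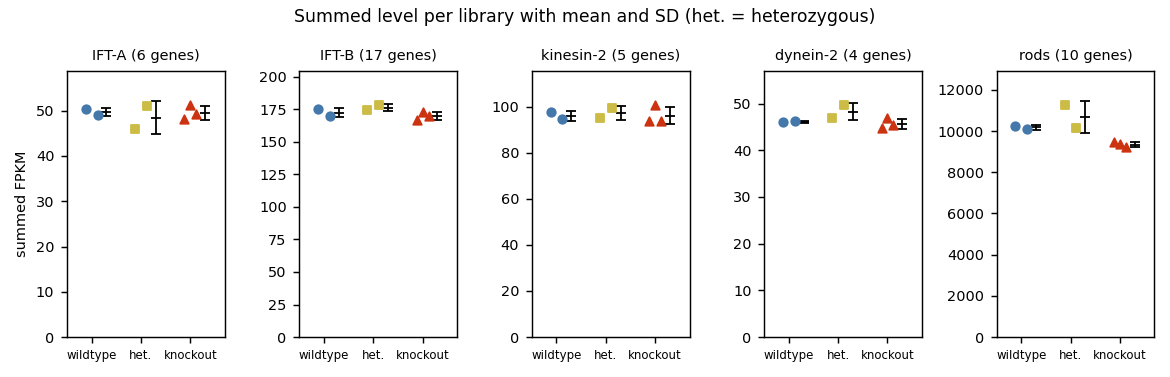
Summed FPKM of each class and of 10 rod marker genes in each library by genotype, with mean and SD; axes start at 0. Knockout and wildtype overlap in all 4 transport classes, while the rod sum is 9210 to 9455 in knockout and 10109 to 11247 in the controls.

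Comparing knockout with all controls used the most libraries. No member passed (0 of 32), against 0.614% of all genes, and 7 members had an unadjusted p under 0.05, against 12.2% of all genes. These were Ttc30b, Ift74, Ift81, Hspb11 and Kifap3 on the lower side and Ift57 and Kif17 on the higher side. Knockout and controls did not overlap in 5 members (Ttc30b, Ift74, Kifap3 and Dync2li1 lower, Ift57 higher), or 5 of 32, against 13% of all genes. Taken back to FPKM at the control mean, the 95% interval lay within 1.5-fold for 30 of 32 members, and reached 1.73-fold for Hspb11 and 1.66-fold for Kif17. The median of the members was -0.04 and that of all genes 0.00.

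The heterozygous libraries were compared with each of the other genotypes to ask whether 1 copy matters. Against heterozygous, knockout had 0 of 32 members past the test, with 0.317% of all genes, and 7 with an unadjusted p under 0.05, with 12% of all genes; Ift172 was the one of these 7 above 0. Between heterozygous and wildtype 0 members and 0% of all genes passed, and 2 members (Hspb11 and Ift46, both higher) had an unadjusted p under 0.05, with 4% of all genes. Agbl5 itself, at -0.83 ± 0.14 between these genotypes, did not pass there (adjusted p = 0.974), so the absence of calls sets no limit on effects of that size. The member median was -0.03 for knockout against heterozygous and 0.01 for heterozygous against wildtype. Voom called 0 members in these comparisons as well, with 5 and 2 at the unadjusted level, and 5 against all controls.

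Partners and regulators of the trains were listed as 19 further genes, of which Ttc30a2 alone was under the filter. No one of the 18 tested passed in any comparison; against wildtype 3 had an unadjusted p under 0.05, 1 higher and 2 lower, where 7.5% of all genes did, and the median was -0.09. Tctex1d2, a light chain of dynein-2, had the smallest p. It was at 6.54 and 7.03 FPKM in wildtype, 7.72 and 7.29 in heterozygous and 5.10, 5.59 and 5.00 in knockout, so that every knockout library lay below every control. The change was -0.32 ± 0.08 against wildtype (adjusted p = 0.337), -0.45 ± 0.08 against heterozygous (adjusted p = 0.125) and -0.39 ± 0.07 against all controls (adjusted p = 0.0768). Arl13b, a ciliary GTPase, was at 14.97 and 16.3 FPKM in wildtype, 12.9 and 13.7 in heterozygous and 13.7, 13.4 and 14.0 in knockout (-0.18 ± 0.07 against wildtype, adjusted p = 0.616), and its change against all controls was -0.07 ± 0.08 (adjusted p = 0.743). Mak, a kinase of photoreceptor cilia and the one higher gene of the 3, was named after its values were seen. It was at 54.7 and 53.6 FPKM in wildtype, 49.3 and 55.5 in heterozygous and 58.6, 65.04 and 61.7 in knockout, above every control. Its change was 0.19 ± 0.07 against wildtype (adjusted p = 0.646) and 0.21 ± 0.06 against all controls (adjusted p = 0.247). As motors that work outside the cilium, 10 genes of cytoplasmic dynein and kinesin-1 were taken, and 0 passed, with 0 at an unadjusted p under 0.05 against wildtype, where 7.5% of all genes were, and a median of -0.02. The nearest were Kif5c (33.5 ± 1.77 FPKM in wildtype and 28.8 ± 1.93 in knockout, SD; -0.21 ± 0.10, adjusted p = 0.733) and Kif5a (51.5 ± 3.54 and 46.5 ± 1.61 FPKM; -0.14 ± 0.08, adjusted p = 0.764).

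**Figure D5:**
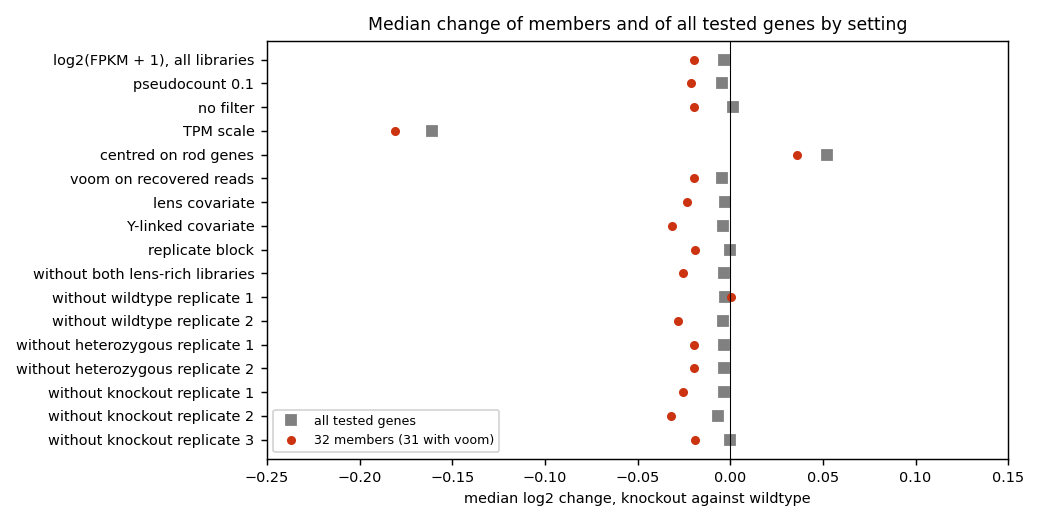
Median log2 change of the members (circles) and of all tested genes (squares) for knockout against wildtype under each setting. The members stay within 0.03 of all genes in each, also where the TPM scale moves both, to -0.18 and -0.16.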

How the data were processed

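Poly(A) RNA of 7 eye libraries was sequenced after NEBNext Ultra library preparation, per the labels' protocols, a kit that does not mark strand. The authors deposited FPKM for 54532 genes; HTSeq, DESeq, Bowtie2 2.0.6 and TopHat2 2.0.9 and the builds mm10 and GRCm38 are named in the submitters' processing notes, with order, settings and annotation not given in the sources used here. Gene models came from GENCODE M21 (GRCm38), which holds 54409 of the identifiers. With its exon lengths 96.8% of values above 0 were whole reads within 0.01, for 32117 genes in every library and 31 of 32 members (not Dync2li1). FPKM were tested as log2(FPKM + 1), which understates changes of low genes, for 15472 genes whose mean reached 1 FPKM, by limma 3.58.1 in R 4.3.3 (empirical Bayes with trend, Benjamini-Hochberg over all genes, 0.05). A fit of 3 genotypes had 4 residual degrees of freedom and a fit of knockout against controls 5. The tests were tried on simulated data. The members and gene lists were chosen with earlier results of these data known. Log2 changes are given for the 3 members of each class with the smallest p against wildtype and for members with an unadjusted p under 0.05, otherwise by range; of the partner and outside-motor lists the 2 with the smallest p were named. Markers of cornea and pigment epithelium were also listed, and their summed FPKM ran from 0.514 to 5.48 and from 20.6 to 155. Alternatives changed the pseudocount (0.1), filter, scale (TPM, centring on rod genes), unit (voom on recovered reads), covariates (lens, Y-linked level, replicate block) and libraries. Some promoter matches are not reported here.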

Additional observations from a re-analysis of the deposited data

Results flagged for a closer look

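Among the 4 controls, a single library stood apart in 2 of 32 members, where chance alone flags about 1 in 20 groups. Ift57 was at 6.02 FPKM in heterozygous 2, against 6.44 to 6.52 in the other 3 controls. Ift88 was at 8.47 FPKM in wildtype 1, against 8.75 to 8.78 in the other 3.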

How the results depend on the processing

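No member was called in any of the 4 comparisons under any of 16 alternatives, with the smallest adjusted p of a member at 0.121 (limma). Genes called of all tested ran from 3 to 77 (50 in the reported fit) for knockout against wildtype, with 5 left without wildtype 1 and 5 without wildtype 2; from 0 to 76 (49) against heterozygous, with 14 without heterozygous 1; from 38 to 150 (95) against all controls; and from 0 to 19 (0) for heterozygous against wildtype. Of the recomputed member changes 442 kept their sign and 4 turned, all against wildtype on the TPM scale: Ift140 (-0.049), Wdr35 (-0.054), Kif3a (-0.085) and Wdr34 (-0.039). Class medians, in the order IFT-A, IFT-B, kinesin-2 and dynein-2, moved on the TPM scale to -0.13, -0.20, -0.13 and -0.23 against wildtype, -0.088, -0.19, -0.0087 and -0.14 against heterozygous, -0.11, -0.19, -0.087 and -0.19 against all controls and -0.11, -0.054, -0.079 and -0.013 for heterozygous against wildtype, where all genes had medians of -0.16, -0.074, -0.115 and -0.083. Centred on rod genes they were 0.061, -0.029, 0.14 and 0.013 against heterozygous and 0.071, -0.0072, 0.096 and -0.00013 against all controls, and 0.014 (IFT-B) and -0.014 (dynein-2) against wildtype. For heterozygous against wildtype IFT-B was 0.051 with the lens and 0.037 with the Y-linked covariate, and dynein-2 was 0.017 with voom, which lacks Dync2li1; against heterozygous, IFT-B was -0.13 with the Y-linked covariate. Without both lens-rich libraries the medians against heterozygous were -0.066 (IFT-B), -0.0090 (kinesin-2) and -0.115 (dynein-2), IFT-B against all controls was -0.046, and IFT-A and kinesin-2 of heterozygous against wildtype were 0.047 and 0.068. Leaving out 1 library gave -0.032 to 0.082 for kinesin-2 against wildtype, -0.13 to -0.065 (IFT-B), -0.033 to 0.11 (kinesin-2) and -0.14 to -0.0027 (dynein-2) against heterozygous, and -0.10 to 0.047 (IFT-A) and -0.072 to 0.068 (kinesin-2) for heterozygous against wildtype; a genotype left with 1 library is assumed to vary like the others. The replicate block gave -0.13 for IFT-B against heterozygous and left 3, 0 and 38 genes called against wildtype, heterozygous and all controls. Deviations of same-numbered libraries from their genotype means correlated at 0.43 and 0.271 between heterozygous and knockout. They correlated at 0.0919 and -0.0233 between wildtype and knockout and at -0.0176 between wildtype and heterozygous. Since not every pair was over 0.1, the numbers were not taken to pair the samples. The check cannot decide this, because the deviations in a genotype of 2 libraries mirror each other, so both wildtype-heterozygous pairs give the same value. The pair at 0.43 is also the lens-rich pair, heterozygous 1 and knockout 1. The cause of the moves under the alternatives was not tested.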
